A study of Mus musculus and Homo sapiens with 6 samples.

Results

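The genes described here restrain MAP kinase signalling: the dual-specificity phosphatase genes Dusp1, Dusp4, Dusp5, Dusp6, Dusp8 and Dusp10, the Sprouty genes Spry1, Spry2 and Spry4, and the Sprouty-related gene Spred1. They were listed by name, as 10 of 21900 protein-coding genes; the list used no threshold on measured values but was drawn up with earlier results of these data known. Every open region inside them or within 20 kb (mm10) was collected, which gave 61 of 55702 regions in all. The regions come from ATAC-seq, which marks accessible DNA through insertion of adapters by the enzyme Tn5, of NMuMG cells, an epithelial line from mouse mammary gland. The cells carried no treatment at time 0h, had under 10 passages, and were grown in DMEM with 10% FBS. Libraries were made from 25000, 50000, 75000 and 100000 cells in order to tune the protocol. There was 1 library per cell number, so replicate error is unknown throughout and cell numbers were not tested against each other.

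Growth factor receptors activate RAS and then a chain of kinases that ends in ERK, and ERK switches on genes whose products damp the same route. The dual-specificity phosphatases remove the activating phosphates from ERK, JNK or p38 kinases. Sprouty and Spred proteins act higher up, near the receptor and RAS. In mammary epithelium this route is driven, among others, by ligands of the EGF and FGF receptors. A peak records accessible DNA and not transcription of the gene.

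For each library the authors deposited peak positions with a whole-number score. The lists held 38878, 43832, 41509 and 45530 peaks in order of rising cell number, with a lowest score of 8 in each. The lists carry no read counts, so depth is unknown, and an unlisted region may hold signal below a score of 8. What the score is computed from is not given, so a difference in score between lists is not read as a difference in accessibility; ranges that span libraries are descriptions. Of the epithelial markers Cdh1, Krt8, Krt18, Jup, Elf3 and Epcam, 5 of 6 had a peak at their start (Cdh1, with no listed start, at an annotated end) in all 4 libraries, Epcam being the exception. The same held for 0 of 4 blood, 0 of 4 endothelial, 0 of 4 neuronal and 1 of 4 fibroblast markers (Col1a1, at an annotated end). In the text below, 4 scores in a row are those at 25000, 50000, 75000 and 100000 cells.

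Each of the 10 genes had a peak near a start or an annotated end in every library. A start is the annotated RefSeq start, and a start peak overlaps the 1 kb on either side of it. All 8 genes with a start in the table used had a start peak in all 4 libraries, where 45.9% of 17492 protein-coding genes did. For Dusp4 and Spry4 no start or strand was listed, and either annotated end was used instead. Both had a peak there in all 4 libraries, as did 43.9% of all protein-coding genes at either end. When peaks scoring below the median of their list, 15 or 16, were left out, the 8 genes still had a start peak in all 4 libraries. The same held for 35.2% of the 17492. Dusp4 and Spry4 also kept a peak at an end, for which no background share was computed at this cut. These counts were not tested.

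Before the values, 4 promoters are shown, because they carry the searched binding motifs or, for Dusp6, no match to the searched letters under a high-scoring peak. Only the listed letters were searched, so a promoter without a match may still hold other forms of a site. Each is the 250 bases before the RefSeq start in GRCm38.p6, the assembly of mm10, on the gene's own strand and 5′ to 3′. Capitals mark matches on either strand to CRE (TGACGTCA, or its part TGACG), the CArG box bound by serum response factor, the Capicua forms (TGAATGAA, TCAATGAA, TGAATGAG and TCAATGAG) and the E-box (CACGTG). Dusp1 lies at chr17:26508473-26508722 (minus strand), Dusp5 at chr19:53528895-53529144 (plus), Dusp6 at chr10:99262981-99263230 (plus) and Spry2 at chr14:105896820-105897069 (minus).
Dusp1: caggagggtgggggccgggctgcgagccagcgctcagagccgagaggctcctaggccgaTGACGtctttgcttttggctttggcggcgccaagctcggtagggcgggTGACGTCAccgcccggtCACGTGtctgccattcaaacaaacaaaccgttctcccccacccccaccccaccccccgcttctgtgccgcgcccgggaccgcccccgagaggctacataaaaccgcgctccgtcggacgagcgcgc
Dusp5: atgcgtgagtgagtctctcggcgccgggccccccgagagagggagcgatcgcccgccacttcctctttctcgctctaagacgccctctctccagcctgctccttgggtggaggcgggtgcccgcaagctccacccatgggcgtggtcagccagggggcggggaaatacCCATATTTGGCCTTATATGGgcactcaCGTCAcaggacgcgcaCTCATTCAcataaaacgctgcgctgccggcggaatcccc
Dusp6: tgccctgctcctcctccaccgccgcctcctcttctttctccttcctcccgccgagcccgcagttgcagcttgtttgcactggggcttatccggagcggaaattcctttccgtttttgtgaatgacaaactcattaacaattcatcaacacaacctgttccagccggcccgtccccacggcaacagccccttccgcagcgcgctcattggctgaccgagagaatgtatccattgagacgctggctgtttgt
Spry2: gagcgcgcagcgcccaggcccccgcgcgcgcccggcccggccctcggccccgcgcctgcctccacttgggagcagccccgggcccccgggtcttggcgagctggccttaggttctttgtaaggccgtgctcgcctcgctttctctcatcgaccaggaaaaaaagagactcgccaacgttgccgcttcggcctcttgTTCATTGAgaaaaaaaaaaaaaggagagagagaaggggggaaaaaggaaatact

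The peaks of Dusp1, Dusp5 and Dusp6 covered all 250 of these bases in every library. Those of Spry2 covered only the 19, 69, 69 and 19 bases farthest from its start.

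**Figure D1:**
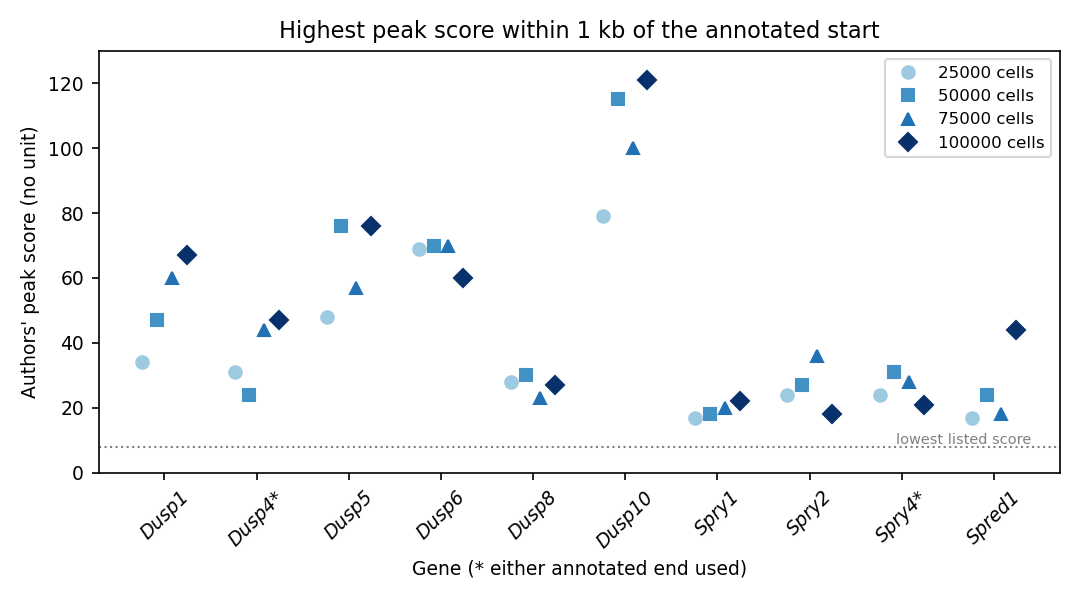
Highest score given by the authors to a peak within 1 kb of the annotated start (vertical axis, no unit) for each gene (horizontal axis), with 1 point per library. For the genes with an asterisk either annotated end was used. Dusp10 lies highest, between 79 and 121, and Spry1 lies between 17 and 22.

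Dusp6 and Dusp5, genes of phosphatases that act on ERK, had high-scoring starts in every list. Dusp6 encodes the cytoplasmic phosphatase of ERK. Its start region on chromosome 10, at 99262751 to 99263700, scored 69, 70, 70 and 60, at or above the 93.8 percentile of each list. A second region centred 1.53 kb upstream scored 20, 29, 29 and 43 and was also found in all 4 libraries. Another such region lay 7.28 kb upstream, with scores of 10, 22, 12 and 11. A region 12.31 kb upstream was listed in 3 libraries, with scores of 21, 19 and 12 from 50000 cells up, and one inside the gene in the same 3, with 18, 11 and 11. The remaining 4 regions were found in 1 library each, with scores of 8 to 10, and no other of the 10 genes had as many single-library regions.

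Dusp5, the gene of a nuclear phosphatase specific for ERK, had 7 of its 10 regions shared by all 4 libraries, and Dusp10 had 6 of 10. With peaks within 200 bp joined, each had 6 shared regions. The start region on chromosome 19, at 53528651 to 53529500, scored 48, 76, 57 and 76. A region inside the gene, at 53531251 to 53532500, scored 56, 52, 48 and 50, and at 25000 cells it stood above the start. Beyond the gene, 4 shared regions lay in a row with their centres 23.78 to 28.30 kb from the start, and 2 of them abut without a gap. The outermost of them, at 53557051 to 53557850, scored 51, 45, 52 and 55, and the one beside it, at 53554901 to 53555750, scored 39, 36, 47 and 71. A further shared region lay 17.42 kb upstream and scored 25, 48, 33 and 48. No other protein-coding gene is annotated in this window, and the annotated start nearest to each of the 10 regions is that of Dusp5.

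The Dusp5 promoter held 2 CArG boxes side by side, CCATATTTGG from base -82 to -73 and CCTTATATGG from -72 to -63, counting the base before the start as -1. A CArG box was present in 1 of the 8 promoters of these genes in the table and in 1.52% of 21263 promoters of protein-coding genes. The CArG box is the core of the serum response element, through which serum and growth factors act on immediate early genes. The same promoter held a CRE part, CGTCA, from -55 to -51, and a Capicua form, CTCATTCA, from -39 to -32. Capicua is a repressor that ERK signalling relieves from its target genes. A match describes letters and does not show that a factor is bound.

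Dusp1 and Dusp4 encode nuclear phosphatases that growth factors and stress induce. The start region of Dusp1 on chromosome 17, at 26507801 to 26509200, scored 34, 47, 60 and 67, and its peaks were 1250 to 1350 bp wide where the median peak of each list was 550 bp. A region 6.38 kb upstream, at 26514501 to 26515200, scored 36, 44, 33 and 48, above the start at 25000 cells and below it in the other libraries. A weaker shared region lay 4003 bases upstream, with scores of 14, 8, 11 and 17. The other 2 regions of the gene were absent from the 25000-cell list. One, 5.37 kb downstream of the start, scored 18, 20 and 19 in the remaining 3 libraries.

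Cyclic AMP response elements (CRE) stood in the Dusp1 promoter at -143 to -136 in full, with a CRE part at -191 to -187 and an E-box at -126 to -121. The full CRE also stood in the Dusp8 promoter, from -107 to -100 and again from -63 to -56. It was thus present in 2 of 8 promoters of these genes and in 2.23% of all 21263. Counting the CRE part, which every full CRE contains, the numbers were 3 of 8 and 23.6%.

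Dusp4 had 9 regions in 52.3 kb. The region at its lower annotated end on chromosome 8, at 34806801 to 34807750, scored 31, 24, 44 and 47. Inside the gene there were 5 regions, of which 2 were shared by all 4 libraries. One of these, at 34815001 to 34815750, scored 20, 36, 15 and 15, and at 50000 cells it exceeded the peak at the end. The other, at 34808651 to 34809400, scored 9, 20, 16 and 20. The remaining regions had scores of 9 to 17 and were found in 1 to 3 libraries. The region farthest from Dusp4 lies inside the neighbouring gene Tnks.

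Dusp8 and Dusp10 encode phosphatases that prefer JNK and p38 to ERK. Dusp10 had the highest start scores of the 10 genes in each library, at 79, 115, 100 and 121, from the 98.8 to the 99.5 percentile of the lists. The region, on chromosome 1 at 184033501 to 184034650, also overlaps 1700056E22Rik, a neighbouring gene whose annotated end lies nearer to the centre of the region, and the signal cannot be divided between the 2 genes. Inside Dusp10, 17.57 kb from the start, a region at 184051551 to 184052350 scored 86, 80, 67 and 83, at or above the 96.4 percentile of each list. At 25000 cells it scored above the start. A further 3 regions inside the gene were shared by all libraries, the highest at 184057151 to 184057900 with 29, 30, 36 and 37. Beyond the gene, a region 50.67 kb from the start scored 28, 36, 45 and 42.

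In Dusp8 the start was not the highest-scoring region of the gene in any library. The start region on chromosome 7, at 142095001 to 142096050, scored 28, 30, 23 and 27. A region inside the gene, 10.71 kb from the start at 142083851 to 142085300, scored 30, 53, 44 and 45. It was the widest of the 61 regions, at 1450 bp. A region 2.69 kb upstream scored 33, 17, 14 and 26. Of the 6 regions in the Dusp8 window, 5 were shared by all 4 libraries, but 2 of these lay nearer to the start of the neighbouring gene Mob2.

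**Figure D2:**
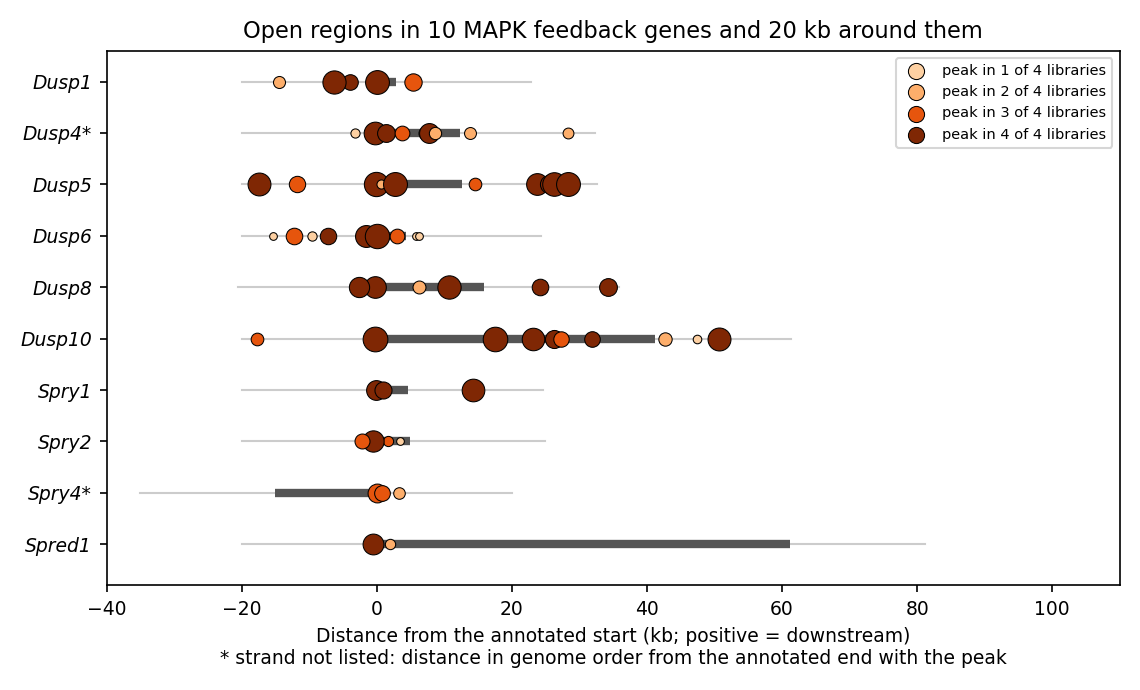
Position of each open region (points, at the centre of the region) relative to the annotated start of each gene, in kb. Thick bars are genes, thin lines the 20 kb on either side, colour gives the number of libraries with a peak, and point area rises with the mean score percentile over the 4 lists, an absent peak counting as 0. The row of shared regions beyond Dusp5 and the 2 lone regions of Spred1 near its start can be seen.

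Sprouty and Spred genes had fewer regions than the phosphatase genes. Their windows held 2 to 4 regions each, against 5 to 10 for the phosphatase genes and a median of 3 over all protein-coding genes. Counting only regions shared by all 4 libraries, Spry1 had 3, as did Dusp1, Dusp4 and Dusp6. Start scores of the 4 genes ran from 17 to 44 over all libraries, and those of the 6 phosphatase genes from 23 to 121. The genes were grouped by family and the ranges are given as a description.

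Spry1 encodes an inhibitor of receptor tyrosine kinase signalling to RAS. All 3 of its regions were found in all 4 libraries, the one gene of the 10 for which this held. The start region on chromosome 3, at 37639601 to 37640200, scored 17, 18, 20 and 22, at the 56.0 to 64.2 percentile of the lists. The median start score of protein-coding genes with a start peak was 26, 33, 30 and 34, and Spry1 lay below it in each library. Of the 8 genes with a listed start, 5, 4, 5 and 5 lay above it. A region 14.30 kb downstream, at 37653801 to 37654700 in the non-coding gene Gm46799, scored 27, 33, 36 and 42, above the start in every library. No other protein-coding gene is annotated in this window.

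Spry2, a paralogue known for its control of EGF receptor signalling, had a single region in all 4 libraries. It lay on chromosome 14 at 105897001 to 105897650 and scored 24, 27, 36 and 18. Its peaks ended 182 or 232 bases upstream of the annotated start, so that the start base itself was under no listed peak in any library. The Capicua form TTCATTGA, from -54 to -47 in the printed promoter, lies in this unlisted stretch. The searched Capicua forms were present in 2 of 8 promoters of these genes, Spry2 and Dusp5, and in 3.37% of all 21263. A region 2.13 kb upstream was listed in 3 libraries with scores of 18, 9 and 16, and was missing at 25000 cells.

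Spred1, whose product brings the RAS inhibitor neurofibromin to the membrane, is the longest of the 10 genes at 61209 bp, and it had only 2 regions. The start region on chromosome 2, at 117119851 to 117121200, scored 17, 24, 18 and 44. The highest-scoring peak there reached the start base at 50000 cells and ended 221, 121 and 71 bases before it at 25000, 75000 and 100000 cells. The other region, 1.93 kb inside the gene, was listed at 25000 and 50000 cells with scores of 9 and 10. Over the rest of the gene and the 20 kb beyond it no peak was listed in any library. At 0.198 regions per 10 kb, Spred1 was the 1 gene of the 10 under the median of all protein-coding genes.

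Spry4, an inhibitor of the same route, was the 1 gene with no region in all 4 libraries as joined here. Its upper annotated end on chromosome 18 had one region at 38601051 to 38601700, listed at 50000, 75000 and 100000 cells with scores of 31, 28 and 21. The 25000-cell list instead had a peak at 38601801 to 38602400 with a score of 24, and this second region scored 9 at 50000 and 16 at 100000 cells. The peak counted for Spry4 in all 4 libraries therefore came from 2 nearby regions, which form a single region in all 4 libraries when peaks within 200 bp are joined. Both overlap the neighbouring gene Arhgap26, and no peak was listed in the remainder of Spry4 or the 20 kb below it.

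Regions were dense around these genes. The 10 windows held a median of 5.5 regions and 1.11 regions per 10 kb, and the windows of all protein-coding genes a median of 3 regions and 0.351 per 10 kb. Within the gene bodies alone the medians were 2.92 and 0.305 per 10 kb. The same number of regions gives a higher density in a shorter gene, and Dusp1 (2882 bp) and Dusp6 (4259 bp) are short. The background was not matched for gene length or for a start peak. With the 20 kb included, density was above the 0.351 of all protein-coding genes at 9 of the 10 genes. It ran from 0.198 for Spred1 to 1.90 for Dusp5 and 2.03 for Dusp6, the last at the 99.0 percentile of protein-coding genes. Of the 9 regions of Dusp6, 4 were in 1 library only. Counting only regions shared by all 4 libraries, Dusp5 stood highest at 1.33 per 10 kb (98.9 percentile), before Dusp8 at 0.886 (95.0). On that count Dusp6 had 0.678 (90.2), Dusp4 0.574 (86.1) and Spry4 0 (16.8). Of the 10 genes, 6 had no other protein-coding gene in their window, which was so for 24.6% of protein-coding genes. Among such isolated genes the median density was 1.03 for the 6 and 0.0896 for all 5379. Neighbouring regions of a gene are not independent of each other, and these medians were not tested. At least 1 region shared by all 4 libraries was present at 9 of the 10 genes and at 66.5% of all protein-coding genes.

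**Figure D3:**
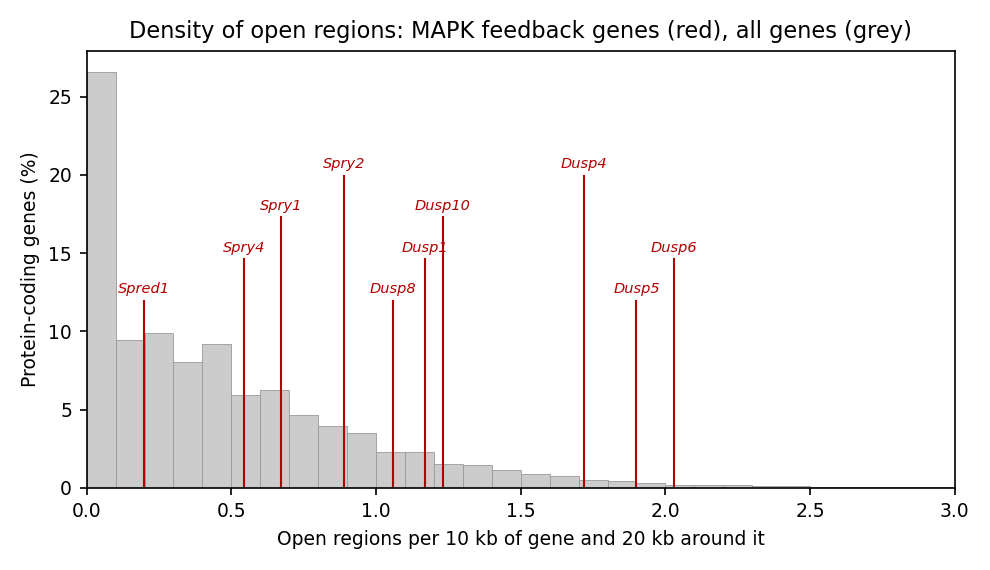
Open regions per 10 kb of the gene and the 20 kb around it (horizontal axis) against the percentage of 21900 protein-coding genes (vertical axis, grey bars of 0.1). Red lines mark the 10 genes, whose heights only separate the names. Regions are counted whatever the number of libraries with a peak. Dusp4, Dusp5 and Dusp6 lie farthest right, at 1.72, 1.90 and 2.03.

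Although regions were dense, a region near these genes was about as often shared as a region elsewhere. A peak in all 4 libraries was found in 32 of the 61 regions (52.5%, exact Clopper-Pearson 95% interval 39.3 to 65.4, counting error only), in 46.3% of all regions and in 49.0% of the 43419 regions in or within 20 kb of a protein-coding gene. A further 12 regions were in 3 libraries, 10 in 2 and 7 in 1. Of the 10 regions at listed starts, 9 were shared by all 4 libraries, the exception being a weak second region of Dusp5 with scores of 9 and 8. Over all protein-coding genes 77.8% of regions at listed starts were shared. Away from starts and ends, 22 of 48 regions were shared (45.8%, 31.4 to 60.8). No such share was computed for all regions, so this one has no background. Both intervals treat regions as independent, which neighbouring regions of a gene are not.

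Score and sharing went together among these regions. Regions of a single library had scores of 8 to 10. Regions of 2 libraries reached 18 and those of 3 libraries reached 31, at the upper end of Spry4. Regions of all 4 libraries ran from 8 to 121, with a median of 30. Every score above 31 therefore belonged to a shared region, and the low scores occurred in all classes. No list goes below a score of 8, and a region scoring near 8 can fall below it in another library. The relation was not compared with all regions or tested.

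**Figure D4:**
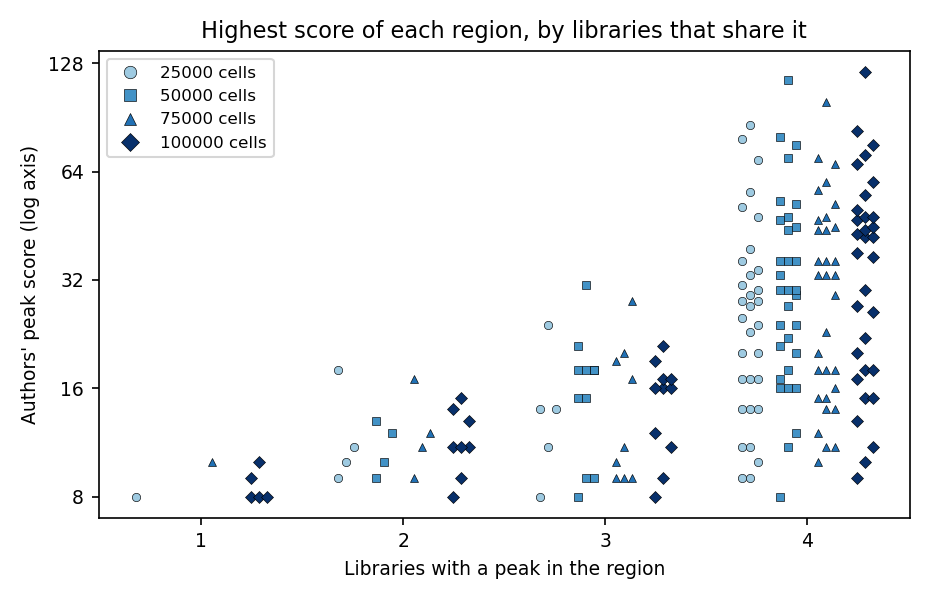
Highest score of each region in each library (vertical axis, log scale, no unit) by the number of libraries with a peak in the region (horizontal axis). Each point is 1 region in 1 library. Points for regions of 1 library lie between 8 and 10, and those for regions of all 4 libraries between 8 and 121.

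The 100000-cell list held 56 of the 61 regions (91.8%, 81.9 to 97.3), and 74.9% of all regions. The 25000-cell list held 42 (68.9%, 55.7 to 80.1; 64.1% of all regions), the 50000-cell list 47 (77.0%, 64.5 to 86.8; 72.5%) and the 75000-cell list 46 (75.4%, 62.7 to 85.5; 68.2%). The intervals cover counting error only and treat regions as independent, which neighbouring regions of a gene are not. Differences from all regions were not tested. Of the 7 regions found in 1 library, 5 were in the 100000-cell list, which held 32.3% of all single-library regions. Of the 12 regions found in 3 libraries, 7 missed the 25000-cell list, as did 39.8% of all such regions. The 100000-cell list is also the longest and the 25000-cell list the shortest, and cell number and library cannot be told apart here.

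The region with the highest score of a gene was not always at its start. At 25000 cells a region away from the start scored above it in 5 of the 8 genes with a listed start, Dusp1, Dusp5, Dusp8, Dusp10 and Spry1, and in 40.8% of protein-coding genes with a start peak in that list. At 50000, 75000 and 100000 cells this held for 2 of 8, Dusp8 and Spry1, against 40.4%, 40.6% and 40.6%. Dusp4 had such a region at 50000 cells. In Dusp6, Spry2, Spry4 and Spred1 no other region exceeded the start or end in any library. Each comparison is within 1 list and has no replicate error.

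Promoters of these genes were rich in CpG. The ratio of observed to expected CpG over the 300-base promoter windows lay between 0.802 (Dusp6) and 1.03 (Spred1) for the 8 genes, and the median over 21263 promoters of protein-coding genes was 0.567. The GC content ran from 57.3% to 73.3%, against a median of 56.3%. The GC box GGGCGG stood in 6 of 8 and in 46.2% of all promoters. None of the 8 held the AP-1 motif TGANTCA (6.99% of all), the ETS motif CCGGAAGT (5.15%) or the TATA box TATAAA (12.6%). The ETS part CCGGAA stood in Spry2 alone (18.7% of all) and the E-box in Dusp1 alone (7.84%). Windows hold 250 bases before and 50 after the start, and these letters may occur elsewhere in the peaks.

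The rest of the pathway also carried start peaks in most cases. Of 55 further genes in 4 lists, 45 had a listed start, and 38 of these had a start peak in all 4 libraries (84.4%), beside the 45.9% of protein-coding genes with a listed start. The other 10 were read at either annotated end, and 8 of them had a peak there in all 4 libraries. The counts below join both kinds. Among 16 other feedback genes it was 11. The highest ranked were Lrig1, a receptor inhibitor, with 73, 94, 87 and 124, the RAS-inactivating gene Rasa1 with 60, 78, 53 and 68, the ERK phosphatase gene Dusp7 with 59, 59, 58 and 66, and Ier3 with 53, 39, 51 and 55. Dusp2, Dusp9 and Spry3, relatives of the genes described here, had none in any library, and the window of Spry3 held no region at all. Dusp16 had a start peak in 2 libraries and Spred3 in 3. These 2 genes were named after their values were seen.

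Of 19 genes of the RAS to ERK cascade, 18 had a peak in all 4 libraries, 13 of them at a listed start. The adaptor gene Shc1 scored 66, 83, 99 and 73, Hras 40, 46, 49 and 72, and the docking protein gene Gab1 42, 39, 43 and 43. The exception was the adaptor gene Grb2, with peaks of 12 and 8 in the libraries of 75000 and 100000 cells; it was named after its values were seen. Of 14 genes of the JNK and p38 branch, 11 had a start peak in all 4 libraries. The JNK gene Mapk9 scored 62, 108, 103 and 104, the p38 gene Mapk14 47, 51, 54 and 65, and the kinase genes Map2k3 and Map2k4 followed with 33, 63, 44 and 60 and with 38, 51, 38 and 62. Mapk10, Mapk12 and Mapk13, further JNK and p38 genes, had none in any library.

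All 6 genes used as transcriptional readouts of ERK had a peak in all 4 libraries, 3 at a listed start and Phlda1, Etv4 and Ccnd1 at an annotated end. Etv5, an ETS factor gene, scored 71, 105, 122 and 123, Phlda1 60, 64, 70 and 59, Etv4 31, 64, 32 and 47, and the cyclin gene Ccnd1 51, 44, 31 and 38. The median density of regions was 0.635 per 10 kb for the other feedback genes, 0.595 for the cascade, 0.720 for the JNK and p38 branch and 0.860 for the readout genes, each between the 0.351 of all protein-coding genes and the 1.11 of the 10 genes. These medians were not tested.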

How the data were processed

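Peaks of 4 NMuMG ATAC-seq libraries, 1 per cell number, were analysed. The series also has 2 samples of MDA-MB-231, not analysed here. The submitters' processing notes name Bowtie 0.12.8, Picard 1.107, bedtools 2.17.0, cutadapt and SAMtools, and the builds hg19 (human) and mm10, used here as the build of the mouse lists. Peak caller settings and any shift of reads for Tn5: not given in the sources used here. For each library the deposited file holds peak positions with a whole-number score, whose origin is not given; no score is below 8.

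Peaks of the 4 lists that overlapped by 1 bp or more were joined into regions, and each region kept its highest score per library. A score percentile is the share of the list's peaks with a lower score, ties at their midpoint. Gene positions, starts and promoter sequences came from RefSeq tables of GRCm38.p6. All 10 genes matched by symbol, and 8 had a promoter and strand; exons and introns were not separated. The start background uses the 17492 protein-coding genes with a listed start. Intervals are exact Clopper-Pearson 95% (SciPy 1.17.1, Python 3.11.15, NumPy 2.4.6). The overlap functions were tested on simulated data.

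The genes, lists and motifs were chosen with earlier results of these data known. Named were all 10 genes, per gene the start region and the highest-scoring other region, and per pathway list up to 4 genes with the highest mean start percentile and up to 4 without a start peak (1 gene so selected is not reported here); further regions of the 10 genes were chosen after their values were seen. Alternatives were other windows, score minimums, joining distances and overlaps, and leaving out each library.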

Additional observations from a re-analysis of the deposited data

How the results depend on the processing

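The count of regions shared by all 4 libraries fell from 32 of 61 to 21 of 42 with a window of 5 kb. It was 21 of 44 with only peaks at or above their list's median score, so the totals fell as well. The shared count was 31 with equal numbers of highest-scoring peaks, and 31 peaks of the 25000-cell list had a reciprocal overlap of 50% in each other list. Leaving out each library in turn gave 33 to 39 regions shared by the other 3 and 57 to 61 regions in all. The number of genes with a start or end peak in all libraries was 10 under every alternative run: 500 bp or 2 kb around the start, either annotated end, the higher-scoring peaks, and leaving out each library. The median density of 1.11 regions per 10 kb became 0.768 with a window of 50 kb, 2.92 within the gene bodies and 0.909 with the higher-scoring peaks; for all protein-coding genes the 0.351 became 0.351, 0.305 and 0.192. Of the 61 regions, 54 had one of the 10 genes as their nearest annotated protein-coding gene. The pathway count of 46 was 48 within 2 kb and 32 with the higher-scoring peaks. No paired analysis was possible because each cell number has 1 library. Unknown depth limits each absence to the lowest listed score of 8.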
